A study of Mus musculus with 6 samples.

Results

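The 10 genes studied, which control whether a cell enters or leaves the division cycle, were followed in mouse 3T3-L1 adipocytes after a short glucocorticoid exposure. The set held 4 inhibitors of cyclin-dependent kinases (Cdkn1a, Cdkn1b, Cdkn1c and Cdkn2c), the 3 D-type cyclins (Ccnd1, Ccnd2 and Ccnd3) and the 3 growth arrest and DNA damage inducible Gadd45 genes (Gadd45a, Gadd45b and Gadd45g). Its members were all probes of an Illumina mouse whole-genome bead array annotated with one of these 10 symbols, which gave 26 of the 45281 probes. Of these, 21 probes of 8 genes were detected on at least 3 of the 6 arrays and were tested, among 16317 tested probes of 9144 named genes.

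Both groups were cultures of 3T3-L1, an established mouse embryo fibroblast line that turns into fat cells in culture. They had been differentiated with dexamethasone (DEX), methylisobutylxanthine and insulin, so that the vehicle cells had also met DEX at an earlier stage. After 24 h in 5% stripped serum, cells received 500 nM DEX, a synthetic glucocorticoid, or the ethanol vehicle (0.05% by volume) for 6 h. Each group had 3 arrays, numbered 1 to 3. The study's methods describe treatment in triplicate, but neither they nor the labels say whether these were independently grown cultures. The p-values rest on the spread between the 3 arrays, which may in part be technical, and the small number of arrays limits the precision. In a bulk culture, fewer cells of one type and less RNA per cell cannot be told apart.

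Cyclin D proteins bind the kinases Cdk4 and Cdk6, and the complexes phosphorylate the retinoblastoma protein, which frees E2F factors to switch on genes of DNA synthesis. The Cip/Kip inhibitors, encoded by Cdkn1a (p21), Cdkn1b (p27) and Cdkn1c (p57), bind cyclin and kinase complexes, whereas the INK4 inhibitor p18, encoded by Cdkn2c, binds Cdk4 and Cdk6 themselves. Gadd45 proteins are small stress-induced partners of p21, of the replication clamp Pcna and of the kinase Map3k4. Preadipocytes divide a few times early in differentiation and then leave the cycle as they fill with lipid.

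The samples matched their labels for the hormone and for the fat cell. All 6 well-known glucocorticoid-induced genes examined were higher in DEX (median log2 change 2.54), among them Fkbp5, a chaperone of the receptor, with a log2 change of 6.01. Of 12 adipocyte markers, 11 had a probe and were tested, and the summed level of the list, as log2, ran from 15.88 to 15.93 in vehicle and from 16.02 to 16.16 in DEX. Plin1, the gene of the lipid droplet coat protein perilipin, was lower in DEX (log2 change -1.03, adjusted p = 0.00289), and none was higher. Adipoq, the adiponectin gene, stood at 14.42 in both groups, near the highest value that an array can give here (14.57). Preadipocyte markers were also detected: 13 of 15 were tested, 1 was lower in DEX (Pdgfrb) and the summed level was 15.1 to 15.4 in vehicle and 15.2 to 15.4 in DEX. A summed level is set mostly by the brightest probes of its list and does not give a share of cells. Of 7 macrophage markers, 6 had a probe and 1 was tested, Cd14, whose log2 level of 5.35 to 6.23 in vehicle and 4.54 to 5.82 in DEX gave a difference of -0.61 (adjusted p = 0.33). Lyz2 was detected on 1 array of each group, and Adgre1, Ptprc, Itgam and Csf1r on none. The marker counts here stand beside 4.52% of all tested genes called higher and 3.06% called lower, by the rule given below. Of 20 genes of DNA replication and mitosis, 15 were tested, with 1 higher (Cdc45) and 1 lower (Cdk1) in DEX. The summed level of that list overlapped between the groups, at 10.7 to 11.4 in vehicle and 10.6 to 11.1 in DEX, and what part these markers have in the results on the 10 genes was not tested.

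Levels are given below as log2 normalised signal, and each gene is represented by its brightest tested probe. Probes of a gene are numbered from the brightest, and a brighter probe does not mean a more abundant transcript, so no level is set against that of another probe. A call is an adjusted p under 0.05 from limma, with adjustment over all tested probes. Among the 8 tested genes, 2 were called higher in DEX (Cdkn1a and Gadd45g), where 4.52% of all tested genes were, and 1 was called lower (Gadd45a), where 3.06% were. That made 3 of 8 in either direction, beside 7.58% of all tested genes, and the other 5 did not pass. The genes had been chosen with earlier results of these data known, so these shares are no test of the set. By probe, 5 of 21 were called higher, beside 4.25% of all tested probes, and 3 were called lower, beside 2.55%. Of all tested probes, 6.8% were called in either direction. The 5 were the probes of Cdkn1a and Gadd45g, and the 3 were 2 of Gadd45a and 1 of Cdkn2c. The probe counts thus largely repeat the gene counts. The median log2 change was -0.03 over the 8 genes and -0.06 over all 9144. When arrays were scaled to a common median in place of quantile normalisation, the calls over all genes went from 413 higher and 280 lower to 348 higher and 441 lower, while Cdkn1a and Gadd45g remained higher and Gadd45a lower. In 5 of the 8 genes the 3 DEX arrays lay wholly outside the range of the vehicle arrays (Cdkn1a and Gadd45g above it, Cdkn2c, Ccnd2 and Gadd45a below it), which was so for 27.9% of all tested genes (12.2% above and 15.7% below).

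**Figure D1:**
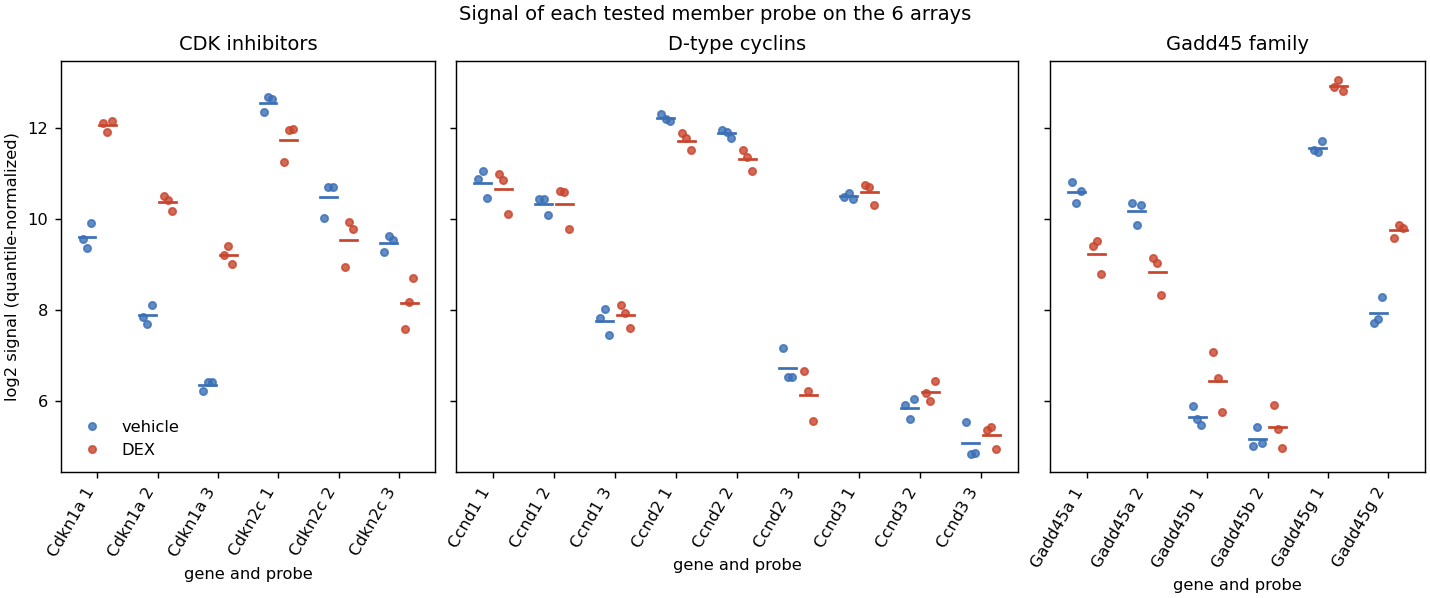
Log2 quantile-normalised signal (vertical axis) of the 21 tested probes on each of the 3 vehicle (blue) and 3 DEX (red) arrays, with bars at the group means and probes of a gene numbered from the brightest. At the brightest probes the Cdkn1a groups are 2.00 apart at their nearest arrays and the Gadd45g groups 1.10, whereas the arrays of Ccnd1, Ccnd3 and Gadd45b overlap.

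Cdkn1a, which encodes p21, an inhibitor of several cyclin-dependent kinases and a classical target of p53, showed the largest rise of the 8 tested genes. Its brightest probe read 9.57, 9.36 and 9.91 on the vehicle arrays (9.62 ± 0.28, SD, n = 3) and 12.12, 11.92 and 12.16 on the DEX arrays (12.06 ± 0.13, SD, n = 3). Every DEX array was at least 2.00 log2 units above every vehicle array. The change was 5.46-fold (95% confidence interval 4.16 to 7.16, log2 change 2.45, SE 0.17, adjusted p = 3.52e-05 from limma). It was the 42nd largest rise among the 9144 genes. Before any normalisation the bead signals were 923, 708 and 1138 in vehicle and 4490, 3553 and 4261 in DEX, and every DEX array was again above every vehicle array.

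The other 2 probes of Cdkn1a gave rises of similar size. The second read 7.85, 7.71 and 8.11 in vehicle and 10.51, 10.42 and 10.18 in DEX, a 5.59-fold rise (adjusted p = 2.53e-05). The third read 6.23, 6.42 and 6.43 in vehicle and 9.21, 9.41 and 9.01 in DEX, a 7.21-fold rise with an interval of 5.64 to 9.21 (adjusted p = 9.15e-06). The size at the third probe varied with the processing. Its log2 change of 2.85 was 2.09 without background correction and 2.20 with values the authors had processed with lumi. Both values lay below its interval of 2.50 to 3.20 on the log2 scale, and both passed. The groups were apart at all 3 probes, and the intervals of the 3 folds overlapped.

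Promoter windows of Cdkn1a are printed here because it rose most. The Cdkn2c window with a receptor half-site (1 of 2 windows of that gene) and those of the Gadd45 genes follow beside their values. They run from 250 bases before to 50 bases after a transcription start, are RefSeq sequences on GRCm38.p6, and read 5′ to 3′ on the strand of the gene. Capitals mark matches, on either strand, to 7 short motifs. These are the glucocorticoid receptor half-site AGAACA, the TATA box TATAAA, the pentamer CCAAT, the GC box with letters GGGCGG, the E-box with letters CACGTG, the cyclic AMP element with letters TGACGTCA, and the p53 half-site. Such matches are common: among 32851 mouse windows of this length, 19.0% held the receptor half-site, 13.6% the TATA box, 37.4% the CCAAT box, 35.7% the GC box, 7.15% the E-box, 1.79% the cyclic AMP element and 8.36% the p53 half-site. The upstream Cdkn1a window held 2 matches to the p53 half-site, which began 73 and 51 bases before the start, and none of the other motifs. These 2 do not adjoin, and neighbouring letters that depart from the 10-letter p53 pattern are not marked. The downstream window held 2 GC boxes.
Cdkn1a upstream start, chr17:29090729-29091028, plus strand: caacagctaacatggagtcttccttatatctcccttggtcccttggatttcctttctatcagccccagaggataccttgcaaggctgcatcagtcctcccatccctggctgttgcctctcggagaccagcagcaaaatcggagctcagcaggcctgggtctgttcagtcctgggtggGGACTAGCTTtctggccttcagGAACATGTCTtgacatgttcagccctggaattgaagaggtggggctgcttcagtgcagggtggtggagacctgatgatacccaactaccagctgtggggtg
Cdkn1a downstream start, chr17:29093519-29093818, plus strand: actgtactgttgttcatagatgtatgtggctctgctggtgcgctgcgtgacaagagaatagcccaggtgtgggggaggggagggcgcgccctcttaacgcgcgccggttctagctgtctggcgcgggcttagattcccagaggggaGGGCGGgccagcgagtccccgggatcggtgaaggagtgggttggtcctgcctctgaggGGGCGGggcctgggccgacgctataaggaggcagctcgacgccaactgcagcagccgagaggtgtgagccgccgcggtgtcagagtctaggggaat
The full palindromic receptor element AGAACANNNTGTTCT contains the half-site on both strands. It was in 3 of the 32851 windows and in none of the 10 windows available for these genes. Those 10 windows covered 7 genes, and Ccnd1, Ccnd2 and Cdkn1c had none. A match describes letters only, and a window without one says only that these letters are not in it.

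The remaining Cip/Kip genes were below the detection limit. Cdkn1b, which encodes p27, had 3 probes, and Cdkn1c, which encodes p57, had 1. None of the 4 was detected on any of the 6 arrays, so neither gene was tested. Their bead signals ran from 79.6 to 103 for Cdkn1b and from 83.7 to 90.0 for Cdkn1c, around the median signal of all probes on an array (91.9 to 96.8). The lowest detection p was 0.0791 for Cdkn1b and 0.292 for Cdkn1c. Signals at this level give no direction and do not show that the transcripts were absent.

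Cdkn2c, which encodes the INK4 inhibitor p18, was lower on every DEX array than on any vehicle array at each of its 3 probes, but the probes divided on the test. The brightest read 12.35, 12.67 and 12.63 in vehicle (12.55 ± 0.17, SD, n = 3) and 11.25, 11.95 and 11.98 in DEX (11.72 ± 0.41, SD, n = 3). The log2 difference was -0.83 (95% confidence interval -1.31 to -0.35), or 1.77-fold lower, with an adjusted p of 0.0511 from limma, just outside the threshold. DEX array 1 was the lowest of the DEX arrays at all 3 probes. Without DEX array 3 the adjusted p of the brightest probe was 0.0493, and that probe passed in 9 of 16 alternatives of processing or array omission.

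The second Cdkn2c probe read 10.03, 10.71 and 10.70 in vehicle and 8.95, 9.92 and 9.77 in DEX, a log2 difference of -0.93 (interval -1.55 to -0.31, adjusted p = 0.0826). The third, a cDNA-derived probe, read 9.26, 9.63 and 9.55 in vehicle and 7.58, 8.17 and 8.71 in DEX, and fell 2.51-fold (interval 1.68 to 3.77, adjusted p = 0.0146). That call was lost without DEX array 2 (adjusted p = 0.0574), vehicle array 2 (0.0688) or vehicle array 3 (0.0541), and also when undetected probes were kept in (0.104). Within arrays of the same number the first probe differed by -1.10, -0.72 and -0.65 and the second by -1.07, -0.78 and -0.93. With the array number as a block the adjusted p became 0.00889 and 0.00361, so both passed.

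Among the 10 windows available, the upstream Cdkn2c window was the one with a receptor half-site, which began 222 bases before the start. It also held 4 GC boxes.
Cdkn2c upstream start, chr4:109666707-109667006, minus strand: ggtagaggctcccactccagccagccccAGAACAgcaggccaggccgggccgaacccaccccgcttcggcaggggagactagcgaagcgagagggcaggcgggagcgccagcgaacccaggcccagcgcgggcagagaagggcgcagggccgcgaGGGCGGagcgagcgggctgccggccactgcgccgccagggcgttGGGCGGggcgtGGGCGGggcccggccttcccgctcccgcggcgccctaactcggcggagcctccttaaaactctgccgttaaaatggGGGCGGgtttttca

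None of the 9 tested probes of the D cyclins passed. Ccnd2, which encodes cyclin D2, was the one with groups that did not overlap. Its brightest probe read 12.31, 12.20 and 12.16 in vehicle (12.23 ± 0.08, SD, n = 3) and 11.88, 11.77 and 11.51 in DEX (11.72 ± 0.19, SD, n = 3). All 3 DEX arrays were below all vehicle arrays, by a mean of 0.51 log2 units. The difference was -0.51 (95% confidence interval -0.85 to -0.17), 1.42-fold lower, with an adjusted p of 0.0825 from limma. With the array number as a block it was 0.0458, and with the authors' lumi values 0.0342. This probe passed in 7 of 16 alternatives.

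The second Ccnd2 probe read 11.95, 11.92 and 11.78 in vehicle and 11.51, 11.37 and 11.06 in DEX, with groups again apart and DEX 1.49-fold lower (log2 difference -0.57, interval -0.93 to -0.21, adjusted p = 0.0676). With the block this probe gave an adjusted p of 0.0309, and without DEX array 1 it gave 0.0463. It passed in 8 of 16 alternatives. The third, dimmer probe had overlapping groups, with a log2 difference of -0.59 (interval -1.22 to 0.04, adjusted p = 0.275). The remaining Ccnd2 probe was detected on no array, with bead signals of 86.0 to 104.

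Ccnd1 and Ccnd3, which encode cyclins D1 and D3, had groups that overlapped at their brightest probes. For Ccnd1 that probe read 10.88, 11.05 and 10.46 in vehicle and 10.98, 10.86 and 10.12 in DEX, where array 3 was the lowest of each group. The log2 difference was -0.15, and its 95% confidence interval of -0.70 to 0.41 left room for a change of either sign. The other Ccnd1 probes gave 0.00 (interval -0.53 to 0.53) and 0.12 (interval -0.32 to 0.56), and the sign at each of the 3 turned when one array was left out. For Ccnd3 the brightest probe read 10.47, 10.57 and 10.44 in vehicle and 10.75, 10.71 and 10.30 in DEX, a difference of 0.09 (interval -0.27 to 0.46) that became -0.07 under median scaling. The other Ccnd3 probes gave differences of 0.35 (interval -0.04 to 0.75) and 0.17, the latter from a probe detected on 1 of the 3 vehicle arrays and 2 of the 3 DEX arrays.

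**Figure D2:**
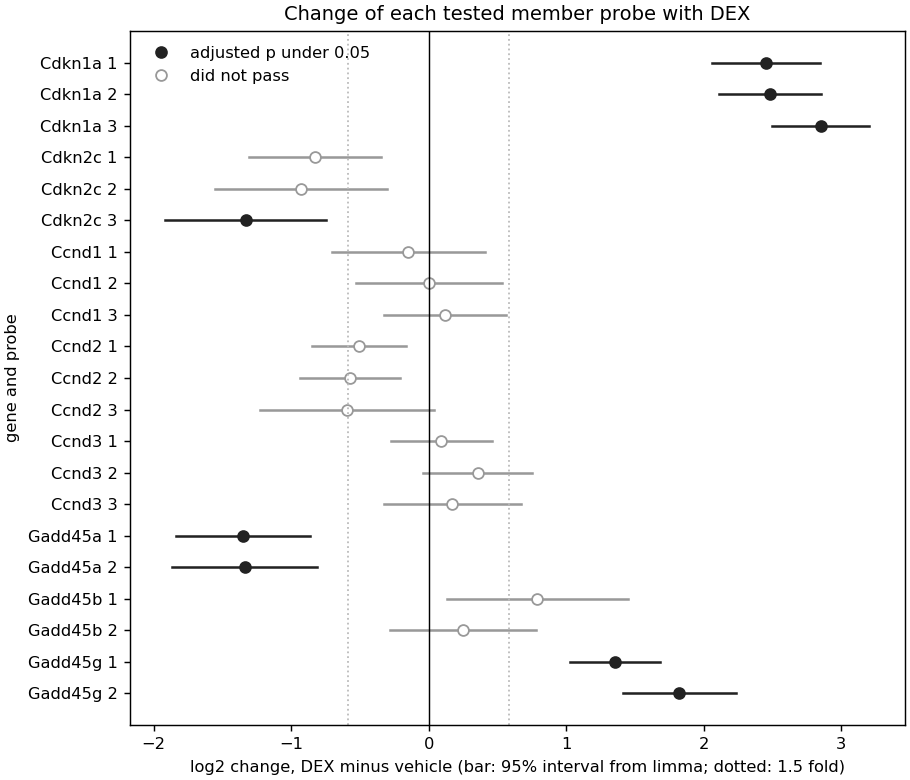
Log2 difference, DEX minus vehicle (horizontal axis), of the 21 tested probes with 95% confidence intervals from limma, filled where the adjusted p is under 0.05, with dotted lines at a change of 1.5-fold. The 3 Cdkn1a probes lie between 2.45 and 2.85, the 2 Gadd45g probes at 1.35 and 1.82 and the 2 Gadd45a probes at -1.35 and -1.34, while the Ccnd1 intervals span 0.

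The Gadd45 genes went separate ways. Gadd45g rose, Gadd45a fell and Gadd45b did not pass. Whether their responses differ from each other was not tested. Gadd45g, whose product binds p21, Pcna and Map3k4 as its relatives do, read 11.51, 11.47 and 11.70 in vehicle (11.56 ± 0.13, SD, n = 3) and 12.89, 13.05 and 12.80 in DEX (12.92 ± 0.13, SD, n = 3). The nearest arrays of the groups were 1.10 apart. The rise was 2.56-fold (95% confidence interval 2.03 to 3.21, log2 change 1.35, SE 0.15, adjusted p = 0.000514 from limma). The second probe read 7.71, 7.82 and 8.28 in vehicle and 9.58, 9.87 and 9.81 in DEX, a 3.53-fold rise (interval 2.66 to 4.70, adjusted p = 0.000316).

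Gadd45a, a known p53 target, read 10.81, 10.34 and 10.62 in vehicle (10.59 ± 0.24, SD, n = 3) and 9.40, 9.53 and 8.80 in DEX (9.24 ± 0.39, SD, n = 3). DEX array 3 was the lowest, and all DEX arrays were below all vehicle arrays. The fall was 2.55-fold (95% confidence interval 1.82 to 3.57, log2 change -1.35, SE 0.22, adjusted p = 0.00517 from limma), the 32nd largest among the 9144 genes. The second probe read 10.36, 9.86 and 10.31 in vehicle and 9.15, 9.03 and 8.34 in DEX, a 2.53-fold fall (adjusted p = 0.0084). At that probe the adjusted p was 0.0679 when undetected probes were kept in.

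Gadd45b, an early-response gene of the family, was close to the detection limit, since the dimmest probes counted as detected lay at 4.97 to 5.05. Its brighter probe read 5.89, 5.61 and 5.48 in vehicle (5.66 ± 0.21, SD, n = 3) and 7.09, 6.50 and 5.76 in DEX (6.45 ± 0.66, SD, n = 3). DEX arrays 1 and 2 were above every vehicle array, and DEX array 3 lay within the vehicle range. The log2 difference was 0.79 (95% confidence interval 0.13 to 1.45, adjusted p = 0.158 from limma). Without DEX array 3 it was 1.13 (adjusted p = 0.0211), and with the array number as a block the adjusted p was 0.0298. Without DEX array 1 it was 0.47 (adjusted p = 0.268), and the authors' lumi values gave 0.44 (adjusted p = 0.202). It passed in 3 of 16 alternatives. The dimmer probe gave 0.25 (interval -0.28 to 0.78, adjusted p = 0.605).

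Promoter windows of the 3 Gadd45 genes are set side by side because one of these relatives rose, another fell and the third did not pass. Those of Gadd45g and Gadd45b each held a TATA box, which began 27 and 46 bases before the start, and an E-box, whereas the Gadd45a window had neither and held a p53 half-site that began 40 bases before the start. All 3 held at least 1 CCAAT box. Those of Gadd45a and Gadd45b each held a GC box, and that of Gadd45g did not. The upstream window of Cdkn1a, which rose, also held p53 half-sites. Whether these matches have a part in the changes was not tested.
Gadd45g, chr13:51846425-51846724, plus strand: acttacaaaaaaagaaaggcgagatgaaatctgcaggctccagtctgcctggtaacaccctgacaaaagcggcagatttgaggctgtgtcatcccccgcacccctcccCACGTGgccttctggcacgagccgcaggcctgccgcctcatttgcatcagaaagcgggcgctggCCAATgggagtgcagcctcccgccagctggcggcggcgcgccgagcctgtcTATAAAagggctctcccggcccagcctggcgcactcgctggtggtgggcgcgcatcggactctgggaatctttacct
Gadd45b, chr10:80929841-80930140, plus strand: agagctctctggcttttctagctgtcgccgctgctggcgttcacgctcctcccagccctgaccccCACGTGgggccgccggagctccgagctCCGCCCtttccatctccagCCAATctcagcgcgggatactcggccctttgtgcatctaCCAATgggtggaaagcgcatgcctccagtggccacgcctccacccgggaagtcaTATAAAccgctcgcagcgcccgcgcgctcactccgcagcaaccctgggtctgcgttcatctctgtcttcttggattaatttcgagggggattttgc
Gadd45a, chr6:67037358-67037657, minus strand: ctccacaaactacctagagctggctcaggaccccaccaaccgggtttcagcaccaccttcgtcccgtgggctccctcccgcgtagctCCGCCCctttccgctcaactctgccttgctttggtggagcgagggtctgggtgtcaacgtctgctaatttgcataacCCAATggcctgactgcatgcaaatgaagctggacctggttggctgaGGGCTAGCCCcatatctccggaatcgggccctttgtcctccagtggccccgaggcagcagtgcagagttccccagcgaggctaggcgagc

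**Figure D3:**
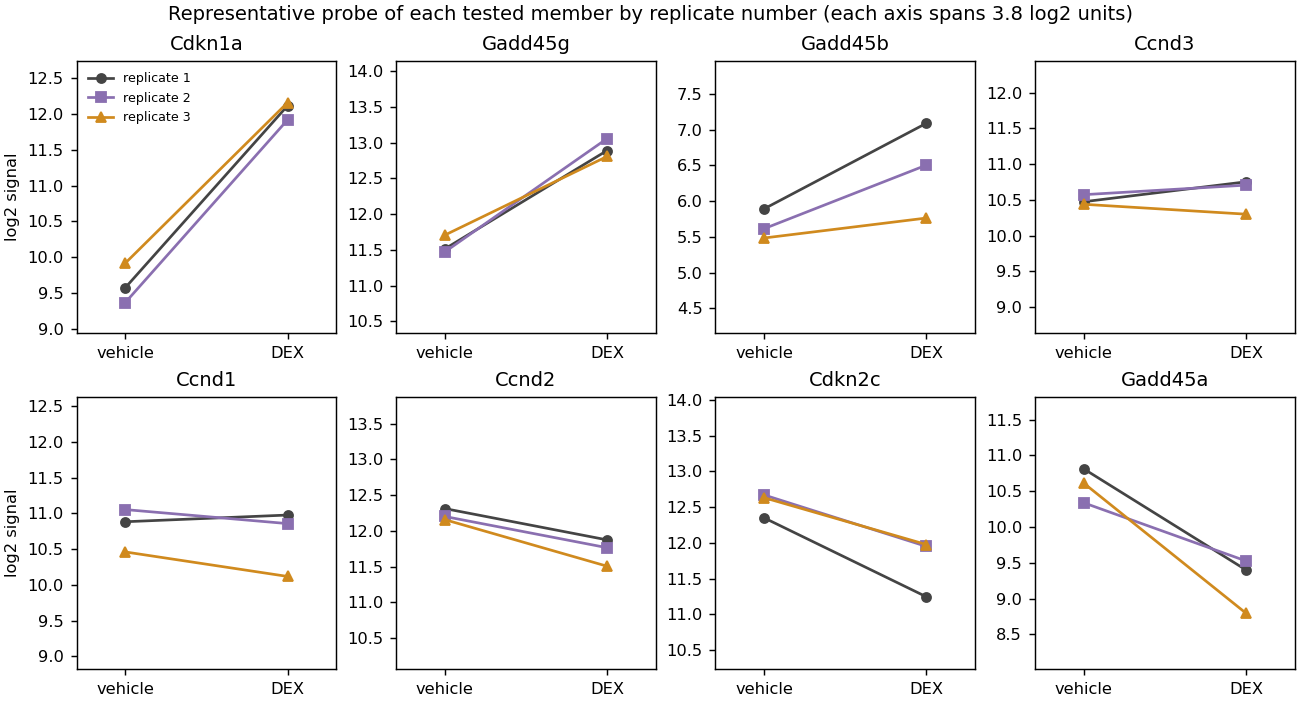
Log2 signal (vertical axes, all of equal span) of the brightest probe of each tested gene in vehicle and DEX, with lines that join arrays of the same number. The DEX minus vehicle difference within a number lies between 2.25 and 2.56 for Cdkn1a, 1.10 and 1.59 for Gadd45g, -1.82 and -0.81 for Gadd45a, and 0.28 and 1.20 for Gadd45b.

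Other genes of the G1 to S transition were taken from a list. Of 27 listed genes of this machinery (kinases, E cyclins, retinoblastoma and E2F factors and their regulators), 17 were tested, with 1 higher, 1 lower and 15 not passing, and the median log2 change was -0.06, as over all genes. Over all tested genes, 4.52% were called higher, 3.06% lower and 7.58% in either direction, against which the counts of this and the next 3 lists stand. The E cyclins, which drive Cdk2 after cyclin D has acted, were the pair that passed. Ccne2 went from 5.24 ± 0.15 to 6.28 ± 0.56 (SD, n = 3), 2.06-fold higher (adjusted p = 0.0398), and Ccne1 went from 6.39 ± 0.08 to 5.79 ± 0.21, 1.52-fold lower (adjusted p = 0.0487). The call for Ccne2 was lost in 8 of 16 alternatives, among them the omission of DEX array 2 or any vehicle array (adjusted p from 0.083 to 0.134). That for Ccne1 was lost in 12, among them the omission of any array but DEX array 1 (0.063 to 0.174). The log2 change of Ccne1, -0.60, was -0.29 without background correction and -0.32 with the authors' lumi values, and neither passed. The vehicle level of Ccne2 was close to the dimmest probes counted as detected (4.97 to 5.05). Its log2 change of 1.04 was 0.46 without background correction and 0.52 with values the authors had processed with lumi. Rb1, the retinoblastoma gene, differed by 0.02 (adjusted p = 0.967) and Ccnh, the cyclin of the kinase that activates Cdks, by 0.01 (adjusted p = 0.977), without a settled sign.

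Among 11 other inhibitors of proliferation, 9 were tested, of which 2 rose (4.52% over all tested genes) and none fell (3.06%), with a median of -0.05. Tob2, an antiproliferative protein of the Tob and Btg family, went from 6.90 ± 0.07 to 9.52 ± 0.12 (SD, n = 3), a 6.17-fold rise (adjusted p = 7.65e-06) that passed in all 16 alternatives. Its relative Btg1 went from 13.30 ± 0.14 to 13.94 ± 0.12, a 1.56-fold rise (adjusted p = 0.0315) that was lost in 7 alternatives, which included the omission of any 1 array (adjusted p from 0.0541 to 0.175). Tob1 differed by -0.11 (adjusted p = 0.776) and Ccng1, a p53-responsive cyclin, by 0.32 (interval -0.02 to 0.66, adjusted p = 0.276).

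Cdkn1a and Gadd45a are both known p53 targets, and further genes of that pathway were also divided. Of 27 listed, 24 had a probe and 18 were tested, with 2 higher, 2 lower and 14 not passing, and a median of 0.05. Trp53inp1, a p53-induced nuclear protein, went from 7.96 ± 0.28 to 10.89 ± 0.25 (SD, n = 3), a 7.59-fold rise (adjusted p = 2.44e-05). Sesn1, a stress-induced inhibitor of mTORC1 signalling, went from 9.74 ± 0.09 to 10.96 ± 0.20, a 2.33-fold rise (adjusted p = 0.00128), and both rises passed in all 16 alternatives. The kinase gene Plk2 fell 1.73-fold (adjusted p = 0.0172) and Bbc3, which encodes the pro-apoptotic protein Puma, fell 1.52-fold (adjusted p = 0.046). The call for Plk2 was lost without DEX array 2, vehicle array 1 or vehicle array 2 (adjusted p from 0.053 to 0.107), and that for Bbc3 without any array but DEX array 1 (0.0713 to 0.166). Mdm2, the p53 ubiquitin ligase and one of its best known targets, differed by 0.03 (adjusted p = 0.933) at 14.31 in vehicle, close to the top of the array's range.

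Of 15 listed partners and effectors of Gadd45 proteins, 12 were tested, with none higher, 1 lower and 11 not passing, and a median of 0.02. The one that passed was Map2k3, a kinase upstream of p38, at 1.51-fold lower (adjusted p = 0.0396), a call lost without any array but DEX array 1 (adjusted p from 0.0619 to 0.164). Ddit3, the stress factor also known as Gadd153, differed by -0.78 (adjusted p = 0.0877), by -0.97 (adjusted p = 0.0369) without DEX array 1 and by -0.52 (adjusted p = 0.146) without DEX array 3, and it did not pass in 14 of 16 alternatives. Mapk9, a JNK kinase, differed by 0.18 (adjusted p = 0.691).

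**Figure D4:**
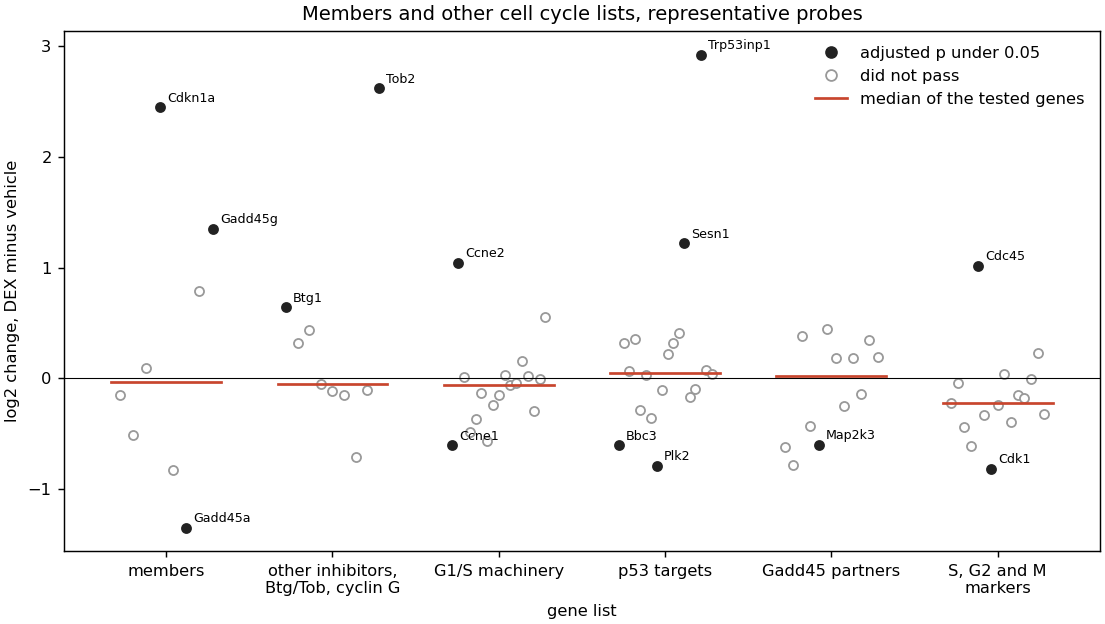
Log2 difference, DEX minus vehicle (vertical axis), of the tested genes among the 10 followed here, in the 4 lists of related genes and among the replication and mitosis markers, 1 point per gene, filled where the adjusted p is under 0.05, with a red bar at each median. The list medians lie between -0.22 and 0.05, with Trp53inp1 at 2.92 and Tob2 at 2.62 above Cdkn1a at 2.45.

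For each of the 3 genes called, the 2 other genes with the nearest pattern were found by the root mean square difference over the 6 arrays, after each probe was centred on its vehicle mean. For Cdkn1a these were Fbxo31, an F-box protein of a ubiquitin ligase known to act on cyclin D1 in human cells (0.165 log2 units, log2 change 2.49), and Fgfr1, a fibroblast growth factor receptor (0.168, log2 change 2.30). For Gadd45g they were Inafm1 (0.0722, log2 change 1.32) and Tle3, a Groucho-type corepressor (0.0852, log2 change 1.34). For Gadd45a they were Tmem120a, a membrane protein of the nuclear envelope (0.211, log2 change -1.42), and Gins2, a subunit of the replicative helicase complex (0.214, log2 change -1.17). Such likeness covers 6 arrays of 2 groups, so that any gene with a change of the same size ranks high.

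**Figure D5:**
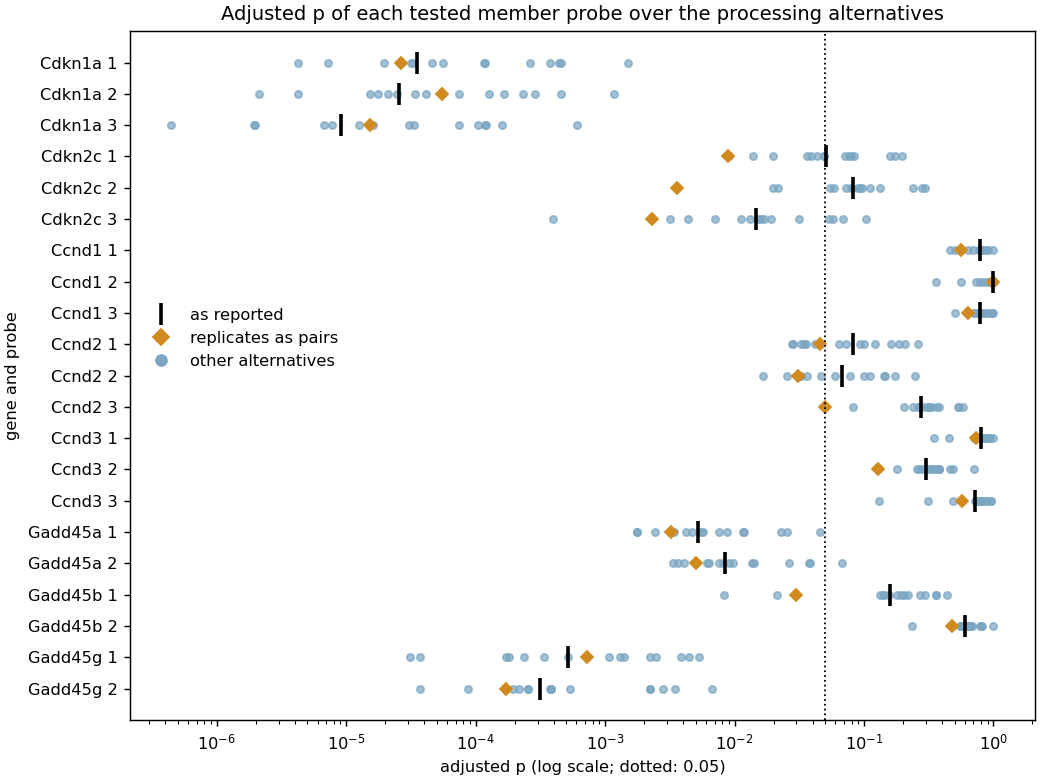
Adjusted p (horizontal axis, log scale, dotted line at 0.05) of the 21 tested probes as reported (black bar), with replicates as pairs (orange) and under the other alternatives (blue). All Cdkn1a, Gadd45g and brightest-probe Gadd45a values lie left of the line, whereas the brightest probe of Cdkn2c does so in 9 and that of Ccnd2 in 7 of the 16 alternatives.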

How the data were processed

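Total RNA from 3 vehicle and 3 DEX samples had been labelled and hybridised to Illumina MouseWG-6 bead arrays. The deposited table held non-normalised bead intensity and a detection p-value per probe from the authors. A second deposited table held intensity values that the authors had processed with lumi (its options: not given in the sources used here), and it served as an alternative. Bead intensity was background-corrected by normexp from the detection p-values (offset 16), quantile-normalised and log2-transformed in R 4.3.3 with limma 3.58.1. A probe entered the test where its detection p was under 0.05 on at least 3 of the 6 arrays. Testing was done with lmFit and eBayes, two-sided, with Benjamini-Hochberg adjustment over 16317 probes. The lmFit and eBayes step was also run on simulated log2 values, which did not exercise the background correction, normalisation or detection filter. Tables and figures were made in Python 3.11.15 with numpy 2.4.6, pandas 2.3.3 and matplotlib 3.10.9.

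Symbols came from the platform annotation, which gave 1 symbol for 34885 probes, several for 18 and none for 10378. A total of 34852 probes had a symbol in the RefSeq gene table of GRCm38.p6. Each array had 15800 to 16523 detected probes, and log2 values correlated at 0.974 to 0.994 within groups and 0.958 to 0.978 between them. Arrays of the same number deviated together from their group means (r = 0.44, 0.30 and 0.25), whereas arrays of unlike number gave r from -0.37 to 0.10. Deviations within a group cancel out, so these values are not independent of each other. The number may pair the arrays, which rests on the data since the labels give only the number. The reported values come from the fit without the number, and a fit with it as a block was an alternative. Alternatives changed the background correction, offset, scaling, detection filter, weights, prior, block or call rule, or left out 1 array.

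Members and gene lists were chosen with earlier results of these data known. The genes named were every member, for each list at most 5 genes that passed, by size of change, and at most 2 that did not, by brightness, and the 2 nearest patterns of each member called. Marker genes were named where they changed or sat at a limit of the range.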

Additional observations from a re-analysis of the deposited data

How the results depend on the processing

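Over 16 alternatives the 21 member probes gave 334 values, of which 292 kept their direction and their side of the threshold, 5 lost the call, 30 gained one and 7 changed sign. Cdkn1a and Gadd45g passed as higher and Gadd45a as lower at their brightest probes in every alternative run. Genes of the set called lower, 1 as reported, were 3 with array weights, the authors' lumi values, median scaling, no background correction, an offset of 50, a trended and robust prior or the replicate block (Cdkn2c and Ccnd2 added), and 2 with a detection p under 0.01 (Cdkn2c added). Omission of 1 array gave 1 to 2 called lower (2 without DEX array 3) and 2 to 3 called higher. Those called higher were 3 (Gadd45b added) with array weights and with the block. Pairing arrays by number (replicate block) changed the calls of Cdkn2c probes 1 and 2 (log2 change -0.83 and -0.93), Ccnd2 probes 1 and 2 (-0.51 and -0.57) and Gadd45b probe 1 (0.79) and no other call of a member probe or named list gene.

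The changes of sign were all in differences that did not pass. Leaving out 1 array in turn gave -0.32 to 0.12 at Ccnd1 probe 1 (above 0 without DEX replicate 3), -0.14 to 0.28 at probe 2 (below 0 without DEX replicate 1 or 2 or vehicle replicate 3) and -0.038 to 0.26 at probe 3 (below 0 without vehicle replicate 3). Median scaling gave -0.16 at Ccnd1 probe 2 and -0.074 at Ccnd3 probe 1. The list genes were run through the same alternatives after their values had been seen. Leaving out 1 array gave -0.040 to 0.080 for Ccnh, -0.054 to 0.36 for Mapk9, -0.26 to 0.17 for Rb1 and -0.23 to 0.035 for Tob1. Median scaling gave -0.13 for Ccnh, -0.041 for Mdm2 and -0.13 for Rb1, and array weights gave -0.011 for Mdm2 and -0.18 for Rb1.

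Over all genes, 413 were called higher and 280 lower, against 792 and 847 with array weights, 237 and 81 past 2-fold, 600 and 544 with the block, 348 and 441 with median scaling, 295 and 135 without DEX replicate 2, and 319 and 161, 246 and 88, and 276 and 132 without vehicle replicates 1, 2 and 3. Median scaling moved the median log2 change of all tested probes from -0.04 to -0.13. The cause of these differences was not tested. Signal over background limits Cdkn1b and Cdkn1c, which have no value, and Gadd45b, which lies near the detection limit. The list gene Ccne2 also lies near that limit in vehicle.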
